A study of Gallus gallus with 7 samples.

Results

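The regions described are the 11368 DNA segments that the authors called on chicken chromosomes 2, 3 and 5, all rows of their segment table for these chromosomes, with no selection on p, q or difference. They make up 11368 of the 53008 segments in the table, with 4316 on chromosome 2, 3853 on chromosome 3 and 3199 on chromosome 5. Each segment is a short run of cytosine positions in CpG sites, and for each the authors gave the mean percent methylation of heat-conditioned chicks, that of non-conditioned chicks and the number of positions. The cells were microglia, the resident macrophages of the brain, isolated by cell sorting out of the anterior hypothalamus 10 days after hatch, and their DNA was read by reduced representation bisulfite sequencing (RRBS). Conditioned chicks had spent 24 hours at 39 °C on day 3, whereas non-conditioned chicks had not, and neither group had yet received lipopolysaccharide. The conditioned group has 3 libraries, numbered 1-2, 3 and 4, and the non-conditioned group has 4 libraries, numbered 1 to 4. Cells of 10 to 12 chicks were pooled for each library, so differences between single birds are averaged within it. The labels do not say how the library numbered 1-2 was made, nor do they give strain or sex, and nothing but the shared number links libraries of the 2 groups. No expression was measured in these libraries, so the labelled cell type could not be set against marker genes.

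In vertebrate DNA most CpG sites are methylated, while CpG islands, the CpG-rich stretches found at many promoters, usually are not. Methylation of a promoter island is typically associated with a silent gene. RRBS cuts the genome at CCGG sites and sequences short fragments, so it samples islands and other CpG-rich DNA and leaves most of the methylated genome unread. Chicken chromosomes fall into a few large macrochromosomes, to which 2, 3 and 5 belong, and many small microchromosomes that are denser in genes and CpG sites. The question behind the comparison is whether a day of early heat leaves a mark on microglial DNA methylation, and here it was asked where along these chromosomes the segments lie, how methylated they are and how the group means differ.

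Library values were given for chromosome 1 but not for chromosomes 2, 3 and 5, so the values below are the authors' means over the libraries of a group and carry no SD. For the same reason no difference between the groups on these chromosomes was tested here. Chromosome 1, another macrochromosome, served as a yardstick for the spread between libraries: its 5234 segments had a mean methylation of 9.94%, 6.61% and 7.38% in conditioned libraries 1-2, 3 and 4, and of 9.66%, 10.0%, 10.5% and 10.5% in non-conditioned libraries 1 to 4. Conditioned libraries 3 and 4 lay below all non-conditioned libraries, and conditioned library 1-2 lay among them. The group means were 7.98% ± 1.74 (SD, n = 3) in conditioned and 10.2% ± 0.405 (SD, n = 4) in non-conditioned libraries, a difference of -2.18 percentage points. That difference gave p = 0.0571 in a two-sided exact permutation test over the 35 arrangements of the libraries, whose smallest possible p is 0.0286, and 0.114 after Benjamini-Hochberg adjustment over the 2 chromosome 1 tests. Without conditioned library 3 the difference was -1.50 points, and without conditioned library 1-2 it was -3.16 points. Read depth is unknown, because the deposited percentages come without call numbers.

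The segments were short and evenly built on all 3 chromosomes. Each held at least 10 positions, with a median of 11 and a maximum of 60, and together they held 144341 positions. On chromosome 1, where positions can be seen, 84.1% of the positions inside segments had a measured position 1 bp away, the spacing of the cytosines on opposite strands of a CpG, so 10 positions stand for fewer CpG sites than that. The median segment was 48 bp long, with 3.71 bp per position. All segments together covered 749 kb, which is 0.234% of the distance from position 1 to the end of the last segment on each chromosome. That distance, called the extent here, is 149.5 Mb on chromosome 2, 111.3 Mb on chromosome 3 and 59.7 Mb on chromosome 5. Per Mb of extent, chromosome 5 held 53.5 segments, chromosome 3 held 34.6 and chromosome 2 held 28.9. Chromosome 1, with an extent of 196.2 Mb, had 26.7 segments per Mb, so among these 4 chromosomes the shorter ones were more densely filled.

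Most of this DNA was almost unmethylated in both groups. The median segment on the 3 chromosomes had 2.71% methylation in conditioned and 5.02% in non-conditioned microglia. By chromosome the medians were 2.80% in conditioned and 5.09% in non-conditioned microglia on chromosome 2, 2.53% in conditioned and 4.82% in non-conditioned microglia on chromosome 3, and 2.81% in conditioned and 5.19% in non-conditioned microglia on chromosome 5. The medians of the other 41640 segments were 3.49% in conditioned and 6.10% in non-conditioned microglia. Taking the mean of both group means as a segment's level, 79.4% of the segments had a level under 10% (9024 segments), 19.3% lay between 10% and 80% (2189 segments) and 1.36% lay above 80% (155 segments). Of the segments on all other chromosomes, 68.9% had a level under 10%. Chromosome 5 had the smallest share under 10%, 76.5%, against 82.0% on chromosome 3 and 79.2% on chromosome 2.

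Level went with how closely CpG positions were packed. Segments with a level of 0 to 2% had a median of 2.82 bp per position, those of 2 to 5% had 3.31 bp, and those of 50 to 80% had 6.95 bp. Those of 80 to 100% were somewhat tighter again, at 6 bp. The median length was 34.0 bp in the lowest class, 84.0 bp in the class of 50 to 80% and 63 bp in the class of 80 to 100%. Low-methylated segments were thus the ones with the most closely spaced measured positions. CpG islands are rich in CpG sites too, but whether these segments lie in islands was not tested.

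The conditioned mean was below the non-conditioned mean in 9218 segments and above it in 2150, so 81.1% were lower in conditioned microglia. The share was 81.1% on chromosome 2, 82.6% on chromosome 3 and 79.3% on chromosome 5. It was 82.2% on chromosome 1, 81.4% on chromosome 4 and 76.7% over all segments off chromosomes 2, 3 and 5. The median difference was -1.88 percentage points on the 3 chromosomes (quartiles -3.65 and -0.83) and -1.88 in the rest of the table. Differences of 10 points or more were uncommon, with 518 segments lower and 233 higher in conditioned microglia by that much. Together these were 6.61% of the segments, against 9.14% in the rest of the table. Between groups the segment means correlated with Pearson's r = 0.952 across the 11368 segments, a description only, since both means come from the same CpG positions and run from 0 to 100%.

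How the segments were called bears on the size of these differences, but the calling settings are not given in the sources used here. No segment of the 53008 had a difference smaller than 0.1 points in either direction, so a lower bound on the difference appears to have been applied before deposit, and positions with no difference between the groups may be under-represented. On chromosome 1, where positions outside segments can be read too, the segments took in 29.2% of the 229024 positions measured in all 7 libraries. Positions inside them averaged 7.54% ± 1.72 in conditioned libraries (SD, n = 3) and 9.71% ± 0.409 in non-conditioned libraries (SD, n = 4), a difference of -2.17 points. Positions outside them averaged 16.9% ± 1.68 in conditioned and 17.8% ± 0.329 in non-conditioned libraries, with the same n, a difference of -0.86 points. On chromosome 1 the segments therefore show a larger gap between the groups than the sampled DNA around them.

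With segments classed by the mean of both groups, the direction of the difference varied with the level. In segments of 0 to 2%, the median difference was -1.11 points and 85.9% were lower in conditioned microglia, and in those of 2 to 5% it was -1.87 points with 88.8% lower. It was -3.51 points at levels of 5 to 10% and -3.77 points at 10 to 20%. In the 610 segments of 20 to 50% the sign turned, with 359 higher and 251 lower in conditioned microglia and a median of +4.38 points. The 402 segments of 50 to 80% were evenly divided, 202 lower and 200 higher, and of the 155 segments at 80 to 100%, 107 were lower, with a median of -3.16 points. The turn at 20 to 50% was seen on chromosome 2 (149 higher, 94 lower) and chromosome 5 (127 higher, 80 lower). Chromosome 3 had 83 higher and 77 lower. On chromosome 2 much of the excess lay in 2 windows of 1 Mb. In this class 28 of 35 segments were higher in its first Mb and 34 of 48 at 32000001 to 33000000. The turn was not particular to chromosomes 2, 3 and 5. In that class 58.9% were higher in conditioned microglia here and 59.9% in the rest of the table (2631 higher, 1763 lower).

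**Figure D1:**
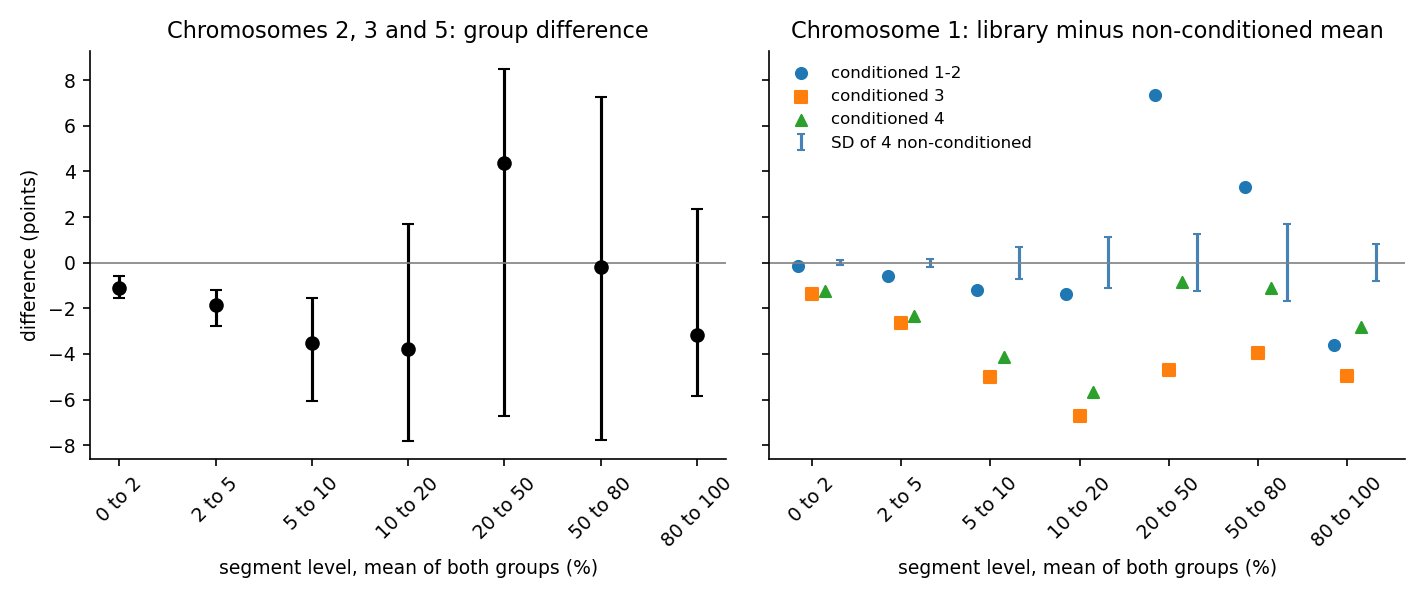
Left, median difference (conditioned minus non-conditioned group mean, percentage points) of the segments on chromosomes 2, 3 and 5 by level class, with bars from the lower to the upper quartile. Right, for the segments of chromosome 1, the mean of each conditioned library minus the mean of the 4 non-conditioned libraries, with bars of 1 SD of the non-conditioned libraries; at 20 to 50% conditioned library 1-2 lies 7.33 points above that mean and conditioned library 3 lies 4.71 points below it.

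The counts at 20 to 50% differed with the group whose mean placed a segment in the class. When segments were placed at 20 to 50% by the conditioned mean alone, 414 were higher and 204 lower in conditioned microglia, but when placed by the non-conditioned mean alone, 338 were higher and 425 lower. The lowest class depended on the placing group too. Placed at 0 to 2% by the conditioned mean alone, 4030 were lower and 145 higher in conditioned microglia. Placed there by the non-conditioned mean alone, 413 were lower and 531 higher. At 2 to 5% by the non-conditioned mean alone, 4241 were lower and 478 higher. A cut on 1 group's mean favours segments in which that group is high at 20 to 50% and low at 0 to 2%. These counts therefore describe the classes and do not test the turn. In the class of 20 to 50% on chromosome 1, by the mean of both groups, conditioned libraries 1-2, 3 and 4 had 40.1%, 28.1% and 31.9%. Non-conditioned libraries 1 to 4 had 31.3%, 33.0%, 32.5% and 34.3%. Conditioned library 1-2 was above all others there and conditioned library 3 below all others, so the conditioned group was spread to both sides of the non-conditioned one. At levels of 2 to 5% the same libraries had 3.58%, 1.51% and 1.83% in conditioned chicks and 3.98%, 3.99%, 4.32% and 4.28% in non-conditioned chicks. All conditioned libraries lay below the non-conditioned ones in that class, with library 1-2 only 0.57 points below their mean. Whether library 1-2 also sets the sign on chromosomes 2, 3 and 5 was not tested, as library values for them were not analysed here.

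Most segments were in the same class in the 2 groups, chiefly those under 10%, and 1488 were not. Both group means were under 10% in 8215 segments, and 9880 segments (86.9%) fell in the same class, under 10%, 10 to 80% or over 80%, in both groups. Of those at 10 to 80% in non-conditioned microglia, 1176 (42.7%) were under 10% in conditioned microglia. In the opposite direction, 230 segments were at 10 to 80% in conditioned and under 10% in non-conditioned microglia. At the upper boundary, 56 segments were at 10 to 80% in conditioned and over 80% in non-conditioned microglia, 32.7% of those over 80% in the latter. Another 26 were over 80% in conditioned and at 10 to 80% in non-conditioned microglia. A change of class can be a small shift across a boundary. The 1626 segments at 10 to 20% by the non-conditioned mean had a median difference of -4.96 points, and 224 were lower by 10 points or more. Placing segments by the non-conditioned mean also favours those in which that group is high. These changes were not counted in the rest of the table.

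By the q-value in the authors' deposited table, 86 of the 11368 segments passed at q under 0.05, of which 77 were lower and 9 higher in conditioned microglia. Of all segments in that deposited table, 0.683% passed, 0.621% lower and 0.0623% higher in conditioned microglia. The 86 are 0.757% of the segments on these 3 chromosomes, which is near that background. Chromosome 2 had 38 of them, chromosome 3 had 31 and chromosome 5 had 17. Of the 86 segments, 85 had a level under 10%, and their median was 1.61% in conditioned and 5.15% in non-conditioned microglia. Many of them were rich in positions: 41 of the 86 held at least 20 positions, against 828 of all 11368. The authors' q-values were not recomputed here for these chromosomes, so they were used only to describe the list. At chr2:19700836-19700883 the deposited Mann-Whitney p is 4.56e-14, which a test with the 7 libraries as its units cannot reach. Positions within a segment thus appear to have been counted as units. These p- and q-values then do not measure the spread between libraries, and the number of positions may bear on which segments passed.

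Along the chromosomes the segments were piled up in a few places. Of 322 windows of 1 Mb, 8 held none, 31 held fewer than 5, and the median window held 28.5. The densest 33 windows held 31.7% of all segments. The longest distance without any segment was 3.45 Mb on chromosome 2 (chr2:69630202-73079852), 1.54 Mb on chromosome 3 (chr3:102495474-104034188) and 1.65 Mb on chromosome 5 (chr5:19521844-21169975), in coordinates of build galGal5 counted from 1. A gap means that no segment was called there, not that the DNA was unmethylated or unread.

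**Figure D2:**
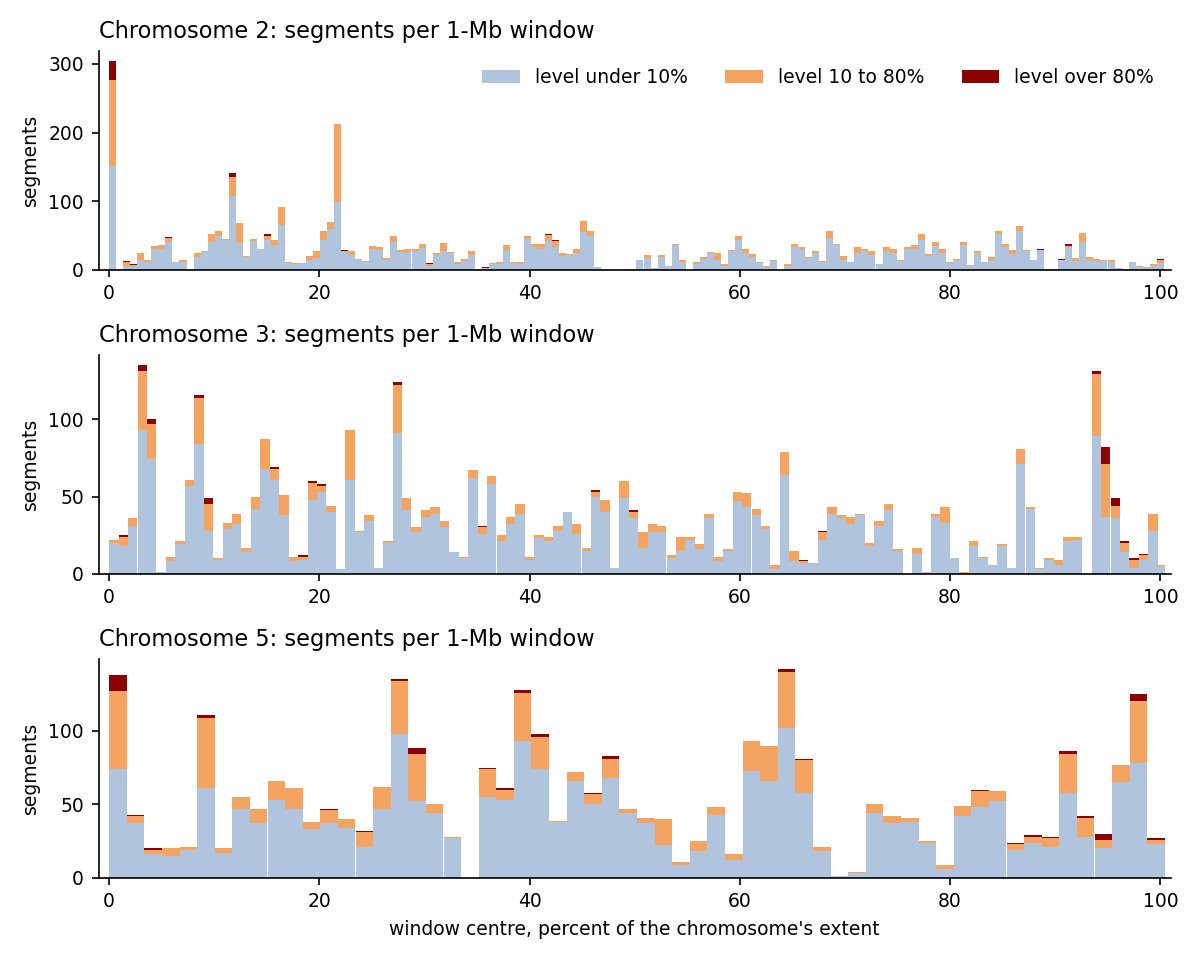
Segments per 1-Mb window along chromosomes 2, 3 and 5, with the window centre as a percent of the chromosome's extent on the x axis and the number of segments on the y axis, coloured by level. The first window of chromosome 2 holds 304 segments and a second peak on that chromosome holds 213, and 72 of the 155 segments over 80% lie within 5 Mb of an end.

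The fullest window of all was the first Mb of chromosome 2 with 304 segments. It was also mixed in level: 50% of its segments were under 10%, 125 lay between 10% and 80%, and 27 of the 58 segments over 80% on the whole chromosome were there. Its median was 8.83% in conditioned and 10.5% in non-conditioned microglia, and 64.1% of its segments were lower in conditioned microglia. The window after it was nearly empty, and only 7 segments on chromosome 2 lay between 1 and 2 Mb from either end.

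The second peak of chromosome 2 was interior, at 32000001 to 33000000, and held 213 segments, 86.9% of them in 3 bins of 100 kb. The bin from 32600001 to 32700000 alone held 85. This window had no segment over 80%, but 114 at 10 to 80% against 99 under 10%, and its median was 9.18% in conditioned and 11.5% in non-conditioned microglia. Of its 48 segments at 20 to 50%, 34 were higher in conditioned microglia, against 359 of 610 over the 3 chromosomes.

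On chromosome 3 the fullest windows lay toward both ends, with 135 segments at 3000001 to 4000000 and 131 at 104000001 to 105000000. In the second of these, 97 segments sat in the 100 kb from 104900001 to 105000000. The 2 fullest windows of chromosome 5 were at 38000001 to 39000000, with 142 segments, and the first Mb, with 138. The first Mb of chromosome 5 resembled that of chromosome 2, with 53.6% of its segments under 10%, 11 over 80%, and a median of 7.89% in conditioned and 9.68% in non-conditioned microglia. Its interior counterpart had 71.8% under 10% and a median of 3.02% in conditioned and 5.55% in non-conditioned microglia. Only 6 of the windows with at least 5 segments had a median level over 10%, 3 on chromosome 2 and 3 on chromosome 3.

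Pooled over the 3 chromosomes, the ends were denser and more methylated than the interior, though not every single end was denser. The outermost 5 Mb at both sides held 46.4 segments per Mb, against 34.3 per Mb in the interior. Their median methylation was 4.03% in conditioned and 6.93% in non-conditioned microglia, against 2.61% in conditioned and 4.88% in non-conditioned microglia in the interior. Of the 1391 segments near an end, 65.9% had a level under 10% and 5.18% a level over 80%, whereas of the 9977 interior segments 81.3% and 0.832% did. Of all 155 segments over 80%, 72 lay within 5 Mb of an end. Chromosome 1 had the same order, with 36.0 segments per Mb near its ends and 26.2 in its interior, and a median of 5.72% in conditioned and 9.09% in non-conditioned microglia near the ends.

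The excess of segments was not shared by all ends. The first 5 Mb of chromosome 2 held 353 segments and the last 5 Mb held 47, and those of chromosome 3 held 318 and 115. On chromosome 5 the last 5 Mb held more, 316 against 242. The last 5 Mb held 9.4 segments per Mb on chromosome 2 and 23.0 on chromosome 3, and the first 5 Mb of chromosome 5 held 48.4. The interiors of chromosomes 2, 3 and 5 held 28.1, 33.8 and 53.1 per Mb, so these ends were sparser than their own interior. With chromosome 2 left out altogether the density of ends over interior was 1.23. Without only the first Mb of chromosome 2 it was 1.09, against 1.35 with that Mb. The level was less dependent on that window, being 1.32 points higher in the ends than in the interior without it and 1.71 points higher with it. Among segments of at least 20 positions the ends were only 0.39 points higher.

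**Figure D3:**
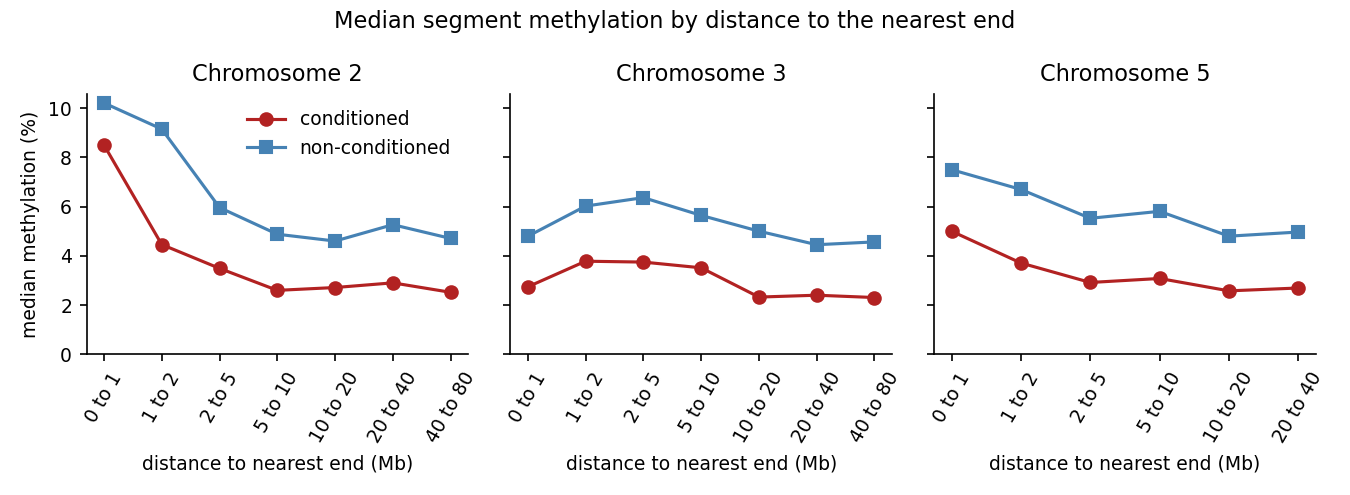
Median segment methylation (percent, y axis) by distance from the nearest chromosome end in Mb (x axis), for conditioned (circles) and non-conditioned (squares) group means on chromosomes 2, 3 and 5. On chromosome 2 the outermost Mb stands highest, at 8.50% in conditioned and 10.2% in non-conditioned microglia; on chromosome 3 it does not stand out.

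Pooled over the 3 chromosomes, the level declined with distance from an end over the first 10 to 20 Mb. Of the 580 segments within 1 Mb of an end, 304 lay in the first Mb of chromosome 2. Over the 3 chromosomes the median within 1 Mb of an end was 5.73% in conditioned and 8.12% in non-conditioned microglia. It was 3.51% in conditioned and 6.19% in non-conditioned microglia at 2 to 5 Mb, and 2.55% in conditioned and 4.82% in non-conditioned microglia at 10 to 20 Mb. Beyond 40 Mb, which only chromosomes 2 and 3 reach, it was 2.44% in conditioned and 4.67% in non-conditioned microglia. Single chromosomes departed from this order. The outermost Mb of chromosome 3 had 2.74% in conditioned and 4.80% in non-conditioned microglia. Its values were higher at 1 to 2 Mb, 3.78% in conditioned and 6.02% in non-conditioned microglia. At 5 to 10 Mb they were 3.52% in conditioned and 5.64% in non-conditioned microglia. Chromosome 2 had 2.60% in conditioned and 4.88% in non-conditioned microglia at 5 to 10 Mb. At 20 to 40 Mb it had 2.90% in conditioned and 5.27% in non-conditioned microglia.

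Pooled over the 3 chromosomes, the median gap between the groups was close at ends and interior, but the mean gap was not, and single chromosomes and ends differed. The median difference was -1.87 points near the ends and -1.89 points in the interior, while the mean difference was -1.67 points near the ends and -2.01 points in the interior. On chromosome 2 the median was -1.55 points near the ends and -1.94 points in the interior, the mean was -0.79 points near the ends and -2.07 points in the interior, and 67.5% of segments near the ends and 82.5% in the interior were lower in conditioned microglia. On chromosome 3 the medians were -1.97 points near the ends and -1.91 points in the interior, and on chromosome 5 they were -1.91 points near the ends and -1.80 points in the interior. The first and the last 5 Mb also differed, with a mean difference of -1.22 points over the 3 first and -2.53 points over the 3 last ends. Among segments under 10% the median difference was -1.85 near the ends and -1.84 in the interior. Over the 3 chromosomes the share lower in conditioned microglia was 76.3% near the ends and 81.8% in the interior. Within the class under 10% the shares were 86.8% near the ends and 86.5% in the interior. Segments at 10 to 80% made up 29.0% of those near the ends and 17.9% of those in the interior. Of these, 53.6% were lower near the ends and 60.8% in the interior. How much of the smaller share near the ends goes with the mix of classes was not tested. On chromosome 1 the ends exceeded the interior by 16.7, 13.2 and 14.1 points in conditioned libraries 1-2, 3 and 4, and by 13.1, 14.2, 13.6 and 13.5 points in non-conditioned libraries 1 to 4, in mean methylation over segments. Library 1-2 was the highest there, and the other conditioned libraries lay within the range of the non-conditioned ones. The group values were 14.7 ± 1.85 points (SD, n = 3) in conditioned and 13.6 ± 0.464 points (SD, n = 4) in non-conditioned libraries, and a two-sided exact permutation test gave p = 0.314 before and after adjustment over the 2 chromosome 1 tests.

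In every 1-Mb window with at least 5 segments the median difference was below 0. This held for 132 windows on chromosome 2, 102 on chromosome 3 and 57 on chromosome 5, 291 in all, with medians from -5.47 to -1.02 points and 80% of them between -2.57 and -1.49. Negative medians were thus found all along the chromosomes wherever windows held at least 5 segments. Because 81.1% of all these segments were lower, most window medians would be below 0 in any case. The count therefore cannot tell an even spread from an uneven one. The 31 windows with fewer segments, 8 of them empty, were left out. Some of these had medians above 0, such as 5.82 points over 4 segments at 98000001 to 99000000 on chromosome 3. On chromosome 1 each library's median over the segments of a window was set against the mean of these medians over the non-conditioned libraries. The library's median was lower in 173 of 174 windows for conditioned libraries 3 and 4 alike, and in 137 windows for conditioned library 1-2. The single non-conditioned libraries were below their own group's mean in 64 to 123 of those windows. The SD between libraries of a window's median had a median over windows of 1.18 points in conditioned and 0.714 points in non-conditioned libraries. All windows share the same libraries, so they are not independent of each other.

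**Figure D4:**
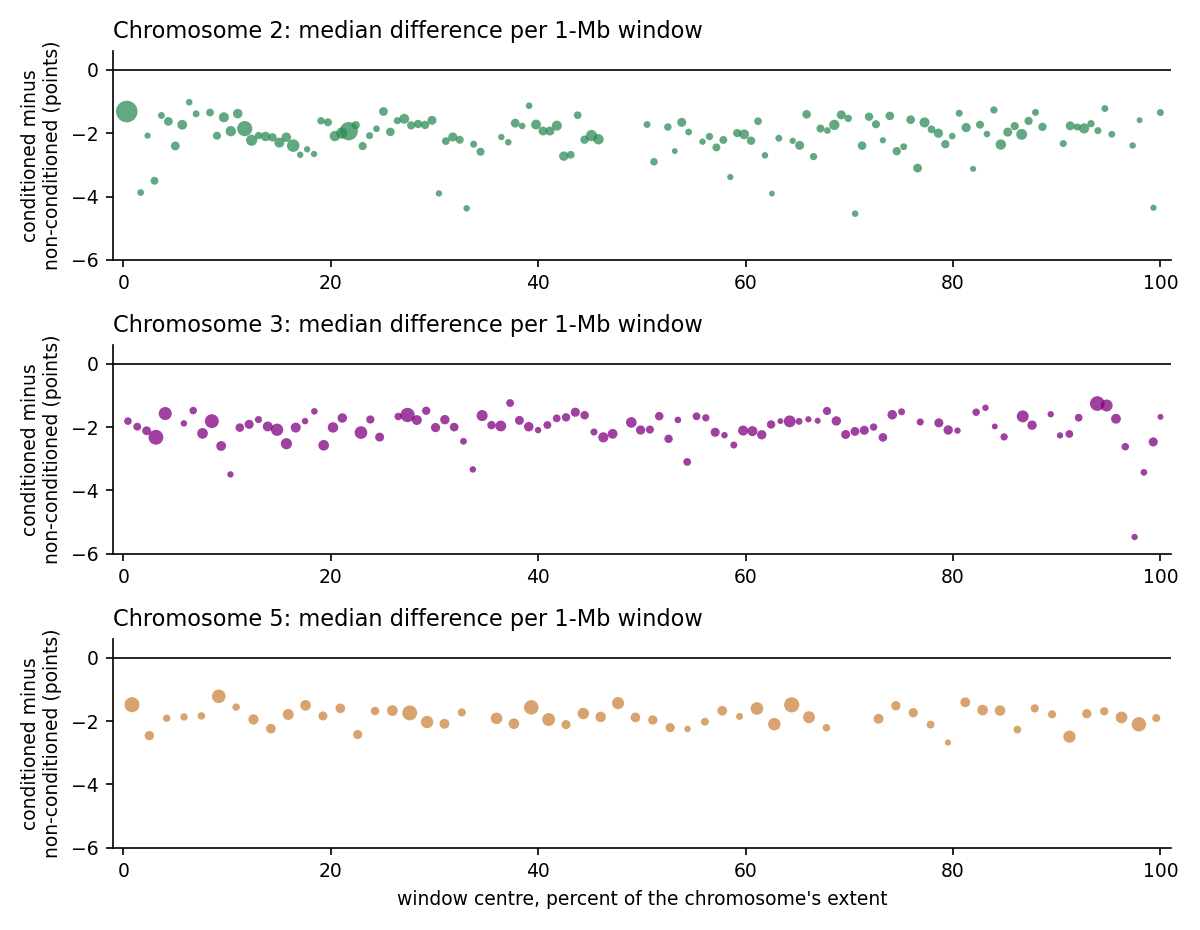
Median difference (conditioned minus non-conditioned group mean, percentage points, y axis) of each 1-Mb window with at least 5 segments, along chromosomes 2, 3 and 5 (x axis, percent of the extent), with larger points for windows of more segments. All 291 windows lie below 0, and those below -3 points are mostly small points, windows of few segments.

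On chromosomes 2 and 3 the windows farthest from the rest held few segments. Among those with at least 10 segments, the lowest median difference was -5.47 points at 108000001 to 109000000 on chromosome 3, with 10 segments and a median of 9.93% in conditioned and 16.5% in non-conditioned microglia. The lowest on chromosome 2 was -4.54 points at 105000001 to 106000000, where all 12 segments were lower in conditioned microglia, with medians of 2.08% in conditioned and 7.86% in non-conditioned microglia. On chromosome 5 it was -2.49 points at 54000001 to 55000000, over 86 segments. The medians nearest to 0 were -1.02 points at 9000001 to 10000000 on chromosome 2, -1.24 points at 41000001 to 42000000 on chromosome 3 and -1.22 points at 5000001 to 6000000 on chromosome 5. These windows were picked for their values, which therefore are descriptions.

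At close range neighbouring segments resembled each other in level but hardly in difference. For 3851 pairs of neighbours less than 50 bp apart, Pearson's r of the level was 0.846. It was 0.675 for gaps of 200 to 500 bp (1230 pairs), 0.250 for gaps of 1000 to 5000 bp (627 pairs) and 0.0881 beyond 100000 bp (850 pairs). The r of the group difference was 0.112 for the closest pairs and between -0.0245 and 0.123 in all other classes of distance. The difference had the same sign in 76.0% of the closest pairs, 61.4% of those with gaps of 1000 to 5000 bp and 70.0% of those more than 100000 bp apart. Because 81.1% of all these segments were lower in conditioned microglia, most pairs would share a sign even without any likeness. These pairs share libraries, and near neighbours may share sequenced fragments, so the values are descriptions with no test. Because segment borders were set by the authors' calling, adjoining segments may also have been parted where their values differed.

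**Figure D5:**
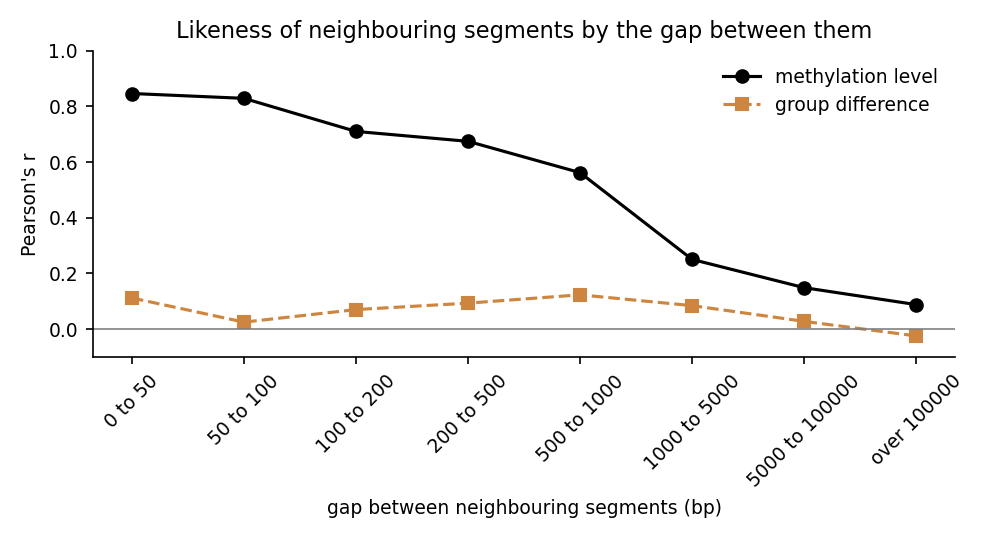
Pearson's r between neighbouring segments (y axis) by the gap between them in bp (x axis), for the methylation level (circles) and the group difference (squares). The level falls away with the gap, with 0.846 below 50 bp and 0.0881 beyond 100000 bp, while the difference stays between -0.0245 and 0.123.

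Grouping segments no more than 500 bp apart, a distance chosen with the data in view, gave 3852 stretches, of which 2375 held more than 1 segment and 762 held at least 5. Of those with at least 5, 363 were under 10% in all their segments, and in 687 (90.2%) the mean was lower in conditioned microglia. A level span of more than 30 points within a stretch was seen in 98 of the 2375, and 6 of these held segments under 10% beside segments over 80%. The median span of level within a stretch of more than 1 segment was 5.28 points, so most such stretches were narrow in level, and a few joined segments of low and high methylation.

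The stretch with most segments was chr2:17742915-17748551, with 31 segments over 5637 bp. Across it the mean was 6.99% in conditioned and 10.0% in non-conditioned microglia, and 25 of the 31 segments were lower in conditioned microglia. Most of it was low, for example 1.35% in conditioned and 3.70% in non-conditioned microglia at chr2:17743545-17743586. At its right edge the levels were higher and the differences took both signs next to each other. At chr2:17748066-17748202 the values were 6.72% in conditioned and 25.6% in non-conditioned microglia, and at the adjoining chr2:17748207-17748241 they were 27.6% in conditioned and 17.1% in non-conditioned microglia.

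On chromosome 3 the stretch with most segments was chr3:23382244-23384921, where 17 of 18 segments were lower and the mean was 3.37% in conditioned and 7.16% in non-conditioned microglia. Its largest gap was at chr3:23384640-23384749, with 4.01% in conditioned and 24.6% in non-conditioned microglia, while the next segment, chr3:23384863-23384921, was low in both groups, with 2.33% in conditioned and 2.91% in non-conditioned microglia. On chromosome 5 it was chr5:39061045-39064652, with 16 of 19 segments lower and a mean of 6.03% in conditioned and 7.99% in non-conditioned microglia. In this block too the outer segments on the right were the most methylated, for example 17.4% in conditioned and 27.1% in non-conditioned microglia at chr5:39064249-39064312.

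The widest span of level within a stretch of at least 5 segments was in the first Mb of chromosome 2, among 13 segments at chr2:379443-382306. The segment chr2:381048-381072 had 87.8% in conditioned and 90.1% in non-conditioned microglia. The third segment to its right, chr2:381725-381764, had 1.74% in conditioned and 4.06% in non-conditioned microglia, and chr2:381832-381874 had 0.668% in conditioned and 0.951% in non-conditioned microglia. Between the high and the low segments, chr2:381231-381284 had 48.8% in conditioned and 52.2% in non-conditioned microglia. Both groups thus fell from high to low over the same segments, whose borders are common to both groups. The last segment, chr2:382254-382306, was higher again, with 35.1% in conditioned and 20.6% in non-conditioned microglia. A stretch at chr5:49728883-49730195 also ran between the extremes, with 86.0% in conditioned and 80.8% in non-conditioned microglia at its left edge and 1.17% in conditioned and 3.38% in non-conditioned microglia at chr5:49729979-49729997. The widest span on chromosome 3, chr3:3336829-3337933, went the other way along the chromosome, its last segment having 83.2% in conditioned and 80.3% in non-conditioned microglia.

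Single segments with extreme differences held 10 to 21 positions each, where the median over all segments on the 3 chromosomes was 11. The lowest difference on the 3 chromosomes was at chr3:32527087-32527142, with 10 positions, listed at 0% in conditioned and 37.8% in non-conditioned microglia. The other 9 segments of its stretch had differences between -5.17 and 3.80 points. The next on chromosome 3 were chr3:67403797-67403871, with 1.37% in conditioned and 34.7% in non-conditioned microglia, and chr3:60054659-60054691, with 1.51% in conditioned and 33.9% in non-conditioned microglia. In these 3 segments the conditioned mean was near 0 and the non-conditioned mean was intermediate.

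On chromosome 2 the lowest differences were -30.0 points at chr2:18067893-18067984, -28.8 points at chr2:32665547-32665606 and -28.1 points at chr2:94295157-94295358. The second of these lies in the dense interior window and had 21 positions, with 39.9% in conditioned and 68.7% in non-conditioned microglia, and the authors' deposited table gives it q = 0.0681. On chromosome 5 they were -27.8 points at chr5:17527728-17527784, listed at 0% in conditioned microglia, -27.6 points at chr5:39071034-39071090 and -25.5 points at chr5:9580110-9580179.

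The highest difference of all was at chr3:3135081-3135140, with 62.7% in conditioned and 26.7% in non-conditioned microglia. It was followed on that chromosome by chr3:104982015-104982053, with 79.4% in conditioned and 51.9% in non-conditioned microglia, and chr3:12525672-12525815, with 64.9% in conditioned and 38.7% in non-conditioned microglia. On chromosome 5 the highest were chr5:45795955-45796046, at 41.6% in conditioned and 10.8% in non-conditioned microglia, and chr5:24404857-24404921, at 47.0% in conditioned and 17.1% in non-conditioned microglia. The third, chr5:16852259-16852603, was long, at 345 bp and 17 positions, and had 51.5% in conditioned and 25.4% in non-conditioned microglia. On chromosome 2, chr2:93915736-93915908 had 30.9% in conditioned and 0.326% in non-conditioned microglia, chr2:330365-330392 had 90.5% in conditioned and 60.8% in non-conditioned microglia, and chr2:44630700-44630744 had 34.1% in conditioned and 6.73% in non-conditioned microglia. None of the 18 segments named here for their differences passed q under 0.05 in the authors' deposited table. Only 0.683% of all segments there passed, so most sets of 18 segments would hold none.

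The spread behind such differences can be read on chromosome 1. Its 15 segments with a difference of 25 points or more in either direction had a median SD between libraries of 4.14 points in conditioned and 24.0 points in non-conditioned libraries, against 1.61 points in conditioned and 2.13 points in non-conditioned libraries over all its segments. In these 15 segments non-conditioned libraries disagreed with each other far more than in the typical segment. The segments were picked for differences computed from the same library values, and such a choice itself favours segments with a wide spread. The SDs are therefore descriptions.

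The segments with the smallest q in the authors' deposited table looked different from these. At chr2:19700836-19700883, with 22 positions, the values were 0.547% in conditioned and 3.95% in non-conditioned microglia, with q = 1e-09 in the authors' deposited table. At chr3:8135924-8135968, with 20 positions, they were 1.89% in conditioned and 7.33% in non-conditioned microglia, with q = 6.59e-10 in the authors' deposited table, and at chr5:24921844-24921900, with 14 positions, 2.68% in conditioned and 7.87% in non-conditioned microglia, with q = 7.11e-07 there. All 3 were low in both groups and differed by 3.40 to 5.44 points. Around the first, the 4 other segments of its stretch were lower in conditioned microglia too, with differences of -1.94 to -0.949 points, while around the other segments the neighbours' differences took both signs.

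The segments with most positions were of low or intermediate level. The one with 60 positions, chr2:98537370-98537553, had 1.52% in conditioned and 3.04% in non-conditioned microglia, with q = 9.77e-06 in the authors' deposited table. The one with 58 positions, chr5:52829937-52830235, had 4.47% in conditioned and 4.65% in non-conditioned microglia, and the one with 50 positions, chr3:4395249-4395433, had 15.5% in conditioned and 9.99% in non-conditioned microglia. Among segments of at least 20 positions, the most methylated were chr2:402911-402997 at 93.9% in conditioned and 92.4% in non-conditioned microglia and chr3:108005516-108005672 at 80.7% in conditioned and 87.4% in non-conditioned microglia. On chromosome 5 it was chr5:37213523-37213658 at 56.7% in conditioned and 48.7% in non-conditioned microglia, so no segment of at least 20 positions there had a level over 80%. Those of chromosomes 2 and 3 lay 0.403 Mb and 3.27 Mb from the nearest end.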

How the data were processed

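The submitters' processing notes name Trimmomatic, Bismark 0.22.3, Bowtie and HOMER, with build galGal5; the tool that made the segments and its settings are not given in the sources used here. The deposited segment table gives, per the file headers, each group's mean in percent, a count of CpG positions, p-values of Mann-Whitney and Kolmogorov-Smirnov tests and a q-value. Its difference column, a signed score deposited by the authors, has the opposite sign to the differences given here, which are conditioned minus non-conditioned. The deposited site table gives percent methylation per position and library, unscaled between libraries. It holds 1048575 positions and none on chromosomes 2, 3 or 5, so library values came from chromosome 1. There, segment means recomputed from positions with a value in every library lay within 0.01 points of both deposited means in 5234 of 5234 segments, with the first coordinate counted from 0. Labels do not say whether pools were independent, so p-values of the permutation tests measure the spread between these libraries only. Wilson 95% intervals were used to mark where a share moved; they cover counting error only and take segments as independent, although all share the same libraries and neighbours resemble each other, so they are too narrow.

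Segments were placed in windows by their midpoint. Segments named are, per chromosome, the 3 highest and 3 lowest differences, the smallest deposited q, the most positions, and the highest level with at least 20 positions; windows named are the 2 with most segments and those with the extreme median differences. Stretches were added after the data were seen, and the members and lists were chosen with earlier results of these data known. Same-numbered libraries were not paired: over chromosome 1 segments their deviations from the group means correlated with r = 0.051 (number 3) and 0.034 (number 4). For differently numbered libraries r ran from -0.079 to 0.073. Versions used were scipy 1.17.1, pandas 2.3.3, numpy 2.4.6 and matplotlib 3.10.9 under Python 3.11.15, and the permutation test was tested on simulated data.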

Additional observations from a re-analysis of the deposited data

Results flagged for a closer look

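On chromosome 1, the mean methylation of segments within 5 Mb of an end was 21.8% in non-conditioned library 1 and 23.1% to 23.2% in the other 3 non-conditioned libraries. Its gap to the nearest of them was 0.895 of the range of the 4 libraries, above Dixon's 95% critical value for 4 samples. Chance alone marks about 1 in 20 such sets, and 14 sets were examined.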

How the results depend on the processing

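Of 66 alternative settings, 13 moved a value past the limit set for it, 3 turned its sign and 50 did neither. The limit was 1.5 times for the density ratio, 1 SD of the non-conditioned chromosome 1 libraries for medians, a Wilson interval, which is too narrow here, for shares, and sign and threshold for the tests. Some of the 50 had little room to move, so their number does not measure robustness. The density ratio stayed within its limit even at 1.09. Chromosome 1 tests with 1 library left out cannot reach p under 0.05, and replicate blocks have no p, so only a turn of sign could mark them. The share of segments lower in conditioned microglia was 89.0% with at least 20 positions, 82.1% when weighted by positions and 80.3% without chromosome 3. The share under 10% was 90.1% with at least 20 positions, 74.3% by the non-conditioned mean alone, 82.6% by the conditioned mean alone, 78.1% without chromosome 3 and 80.5% without chromosome 5. The share higher in conditioned microglia at 20 to 50% was 44.3% by the non-conditioned mean alone, 67.0% by the conditioned mean alone and 72.4% with at least 20 positions; these 3 settings, and leaving out the first Mb of chromosome 2, were chosen after seeing the data. The level of ends minus interior was 0.393 points with at least 20 positions. The difference of ends minus interior, 0.0145 points, was -0.00925 under 10%, 1.16 at 10 to 80%, -0.0885 without chromosome 2 and -0.0862 without the first Mb of chromosome 2; the cause was not tested. The density of ends over interior, 1.35, was 1.99 with ends of 2 Mb and 1.09 without the first Mb of chromosome 2. With chromosome 2 left out altogether it was 1.23. The median difference of segments ran from -1.98 to -1.87 points and the share of windows below 0 from 99.6% to 100% over the settings run.

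Leaving out 1 library at a time, the chromosome 1 difference ran from -3.16 to -1.50 points and its ends minus interior from 0.0425 (without conditioned library 1-2) to 1.83 points, with no exact p below 0.05, which these smaller sets of libraries cannot reach. With a replicate block on numbers 3 and 4 these values were -3.49 and 0.0773 points, with no test because only 2 numbers are shared. Unknown read depth, group means without library values and the missing differences under 0.1 points limit what single segments can show.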
